A study of Mus musculus with 12 samples.

Results

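Liver gene expression at dusk was set against dawn in mice that lack both cryptochromes. The comparison used 8 of the 12 libraries of the series: 4 from zeitgeber times (ZT) 10 and 14, called dusk here, and 4 from ZT22 and ZT02, called dawn. Zeitgeber time counts hours from the daily time cue, and membership followed the time in each library's label, so no measured value took part in it. The remaining 4 libraries, from ZT06 and ZT18, entered the fit for its estimate of spread. All 12 came from male Cry1/Cry2 double-knockout mice on the C57BL/6j strain, 12-16 weeks old, raised conventionally (with a gut microbiome) and fed at night. Every group of this comparison shared the double knockout and the night feeding, and the groups differed in time alone as far as the labels tell. The light schedule is not given in the sources used here, and wild-type mice were not analysed here. Total RNA of the liver, depleted of ribosomal RNA, was sequenced, and the deposited table gives raw exon counts for 22618 genes. The labels do not state that libraries of 1 time point are separate animals. The p-values therefore measure only the spread between these libraries, which may be technical.

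CRY1 and CRY2 are the repressors that close the feedback loop of the circadian clock by holding back CLOCK and BMAL1, and mice without both lose self-sustained rhythms. In the liver, daily changes in RNA also come from outside the hepatocyte clock, through feeding, hormones, body temperature and signals from the rest of the body. Food given at night makes dusk and dawn the passages between the daily fast and the daily meal.

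The 4 dusk libraries held 36143895 to 43840914 counts and the 4 dawn libraries 35662865 to 46074052, and a count of 0 allowed a level of up to 0.0651 to 0.0841 CPM (3 counts of the library total, counting error only). CPM is the count relative to that total, scaled here with edgeR's TMM factors, and the 2 values given for a time point are those of replicate 1 and replicate 2. Over the 9876 genes that averaged at least 5 CPM, the 2 ZT02 libraries stood apart from each other. Their correlation, of log2 CPM scaled per gene, was 0.15 across genes, while ZT02 replicate 1 correlated at 0.48 with ZT06 replicate 1 and ZT02 replicate 2 at 0.49 with ZT06 replicate 2. With ZT02 left aside as a whole, 66 genes were called between dusk and dawn, 27 higher at dusk and 39 at dawn. Of the 124 called genes that were named or singled out, 37 kept their call in that fit and 87 lost it. Those that kept it among the genes described below were Jun, Ppp1r10, Slc5a3, Mrps6, Dnajb1, B4galt5, Mgat2, Rbm3 and Rnf145 on the dusk side. On the dawn side they were Ddx60, Dhx58, Ifih1, Ddx58, Xaf1, Esr1, Pim1, Steap3, Hsd3b3, Ccl9, Apol9a, Bmf, Saa1, Saa2, Lrg1, Apcs, Orm1, Orm2 and Lcn2. Reads of the targeted genes remained, at 13.6 and 8.21 CPM at ZT10, 9.04 and 9.72 at ZT14, 5.71 and 9.56 at ZT22 and 7.21 and 5.75 at ZT02 for Cry1. Those of Cry2 stood at 20.4 and 17.7 CPM at ZT10, 12.4 and 15.7 at ZT14, 13.2 and 17.5 at ZT22 and 18.8 and 21.2 at ZT02. The labels do not say which exons were deleted, so these sums over exons check nothing. Hepatocyte markers dominated all 8 libraries (Alb at 62725 and 65706 CPM at ZT10, 64805 and 64724 at ZT14, 60808 and 65724 at ZT22 and 89787 and 70585 at ZT02), and none of the 7 tested hepatocyte markers passed the test.

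Of 17142 tested genes, 1013 differed between dusk and dawn (5.91% called, edgeR quasi-likelihood test, Benjamini-Hochberg adjusted p under 0.05). At dusk 626 were higher (3.65%) and at dawn 387 (2.26%). With library totals in place of TMM factors the split was 941 against 336. The median size of the difference over all called genes, directions pooled, was 0.55 on the log2 scale, and 137 exceeded 2-fold. By direction the medians were 0.53 for genes higher at dusk and -0.62 for those higher at dawn. For 450 of the genes called higher at dusk (2.63% of those tested) all 4 dusk libraries lay above all 4 dawn libraries, and for 262 called higher at dawn (1.53%) the reverse held. Genes named below follow a fixed rule of size within the tested genes or a list, and members of a list named beyond it were chosen after their values were seen. Of the ribosome biogenesis list 51.9% were called higher at dusk, and of the heat shock factor targets, highest at ZT14, 41.7%, against 3.65% of all tested genes. The transcription factor Jun was among the 15 largest rises. At dawn the calls took in 54.2% of the antiviral interferon list and 33.3% of the acute-phase list, against 2.26% of all tested genes. Egr1 and the estrogen receptor Esr1 were among the 15 largest falls. The count of calls depended on single libraries. Dropping replicate 1 or replicate 2 of a time left 341 or 645 calls for ZT02, 582 or 603 for ZT10 and 519 or 404 for ZT14. The same gave 585 or 582 for ZT18 and 281 or 321 for ZT22. Treating the 8 libraries as 2 groups of 4, which counts the change from ZT10 to ZT14 and from ZT22 to ZT02 as spread, left 29 calls, each also among the 1013.

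**Figure D1:**
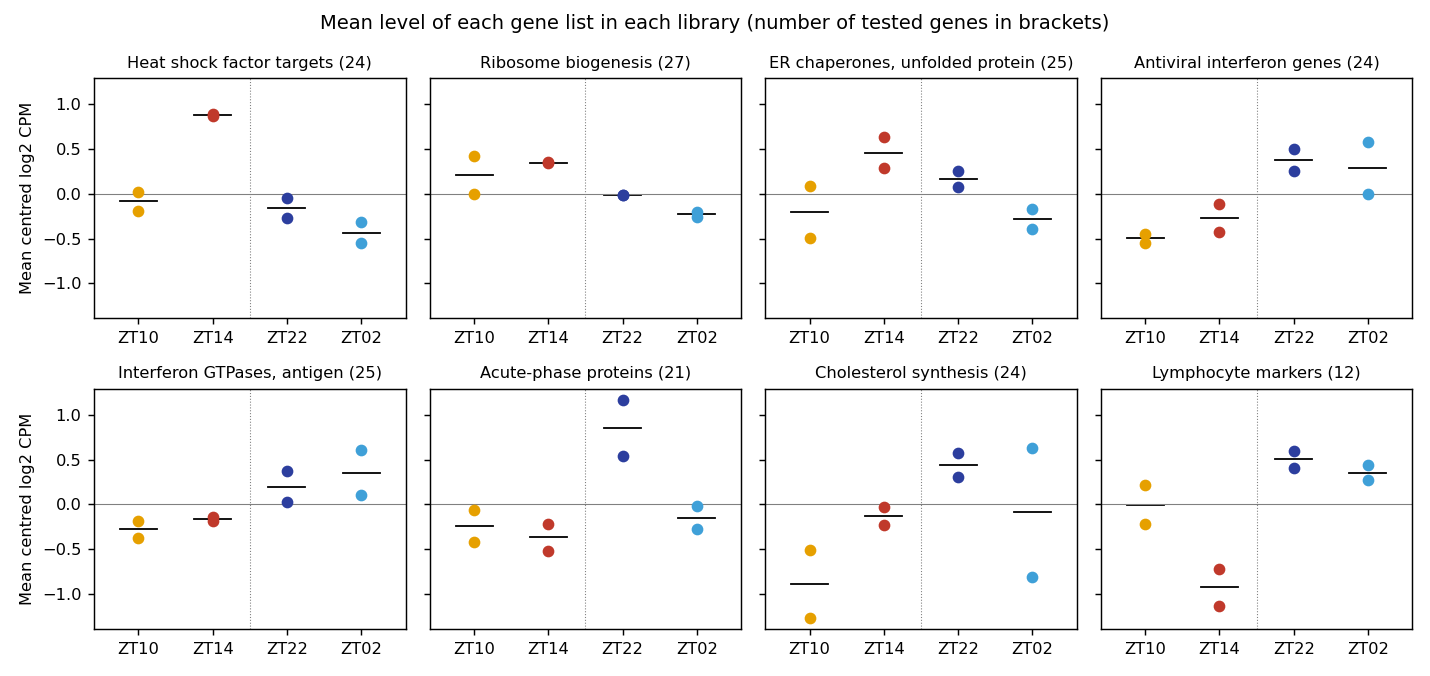
Mean centred log2 CPM of 8 gene lists (vertical axis, each gene centred over all 12 libraries) at ZT10, ZT14, ZT22 and ZT02; points are libraries, bars the mean of 2, and the dotted line parts dusk from dawn. Heat shock factor targets stood at 0.89 and 0.86 in the ZT14 libraries and between -0.55 and 0.02 in the other 6, and acute-phase genes were highest in both ZT22 libraries.

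Heat shock proteins are chaperones that keep other proteins folded, and heat shock factor 1 induces many of them when temperature rises or proteins misfold. Of 24 tested heat shock factor targets, 10 rose at dusk and none fell (41.7% called, against 5.91% of all tested genes). The median log2 difference was 0.44 against -0.00019 over all tested genes. The level was highest at ZT14: the median of the list was 0.97 for ZT14 minus ZT02 and -0.00 for ZT10 minus ZT22. The largest change was in Hspa1b, an inducible cytosolic chaperone, which stood at 4.64 and 17.1 CPM at ZT10, 106 and 86.5 at ZT14, 5.24 and 2.23 at ZT22 and 5.37 and 2.53 at ZT02. Both ZT14 libraries and ZT10 replicate 2 were above all dawn libraries, while ZT10 replicate 1 lay among them (log2 difference 3.07, SE 0.46, adjusted p = 0.00689 in edgeR; 2.45 without ZT10 replicate 2). Its near-identical neighbour Hspa1a, at 3.61 against 0.384 CPM, is uncertain, since reads could be split between the 2 genes, and its call was lost without ZT02 replicate 1, ZT10 replicate 2 or any 1 library of ZT14 and ZT22 (edgeR adjusted p 0.0506 to 0.0971).

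Hsph1, which recharges the same chaperones with ATP, was at 43.6 and 56.7 CPM at ZT10, 141 and 144 at ZT14, 40.9 and 27.95 at ZT22 and 29.4 and 20.8 at ZT02. All dusk libraries lay above all dawn libraries, and the ZT14 pair stood far above the rest (2.87-fold, log2 difference 1.52, SE 0.22, adjusted p = 0.00525). Dnajb1, the co-chaperone that hands substrates to them, was at 20.96 and 26.3 CPM at ZT10, 37.9 and 40.97 at ZT14, 18.2 and 19.1 at ZT22 and 12.8 and 15.03 at ZT02, again without overlap (log2 difference 0.92, SE 0.10, adjusted p = 0.00277). Hspa8, the constitutive member of that family, was at 575 and 959 CPM at ZT10, 1998 and 1650.1 at ZT14, 660.3 and 449 at ZT22 and 497 and 442 at ZT02. ZT10 replicate 1 lay within the dawn range and the other 3 dusk libraries above it (log2 difference 1.21, SE 0.18, adjusted p = 0.00597); 3 small nucleolar RNA entries that lie in Hspa8 moved with it and are not separate evidence. Bag3, a co-chaperone of selective autophagy, had a log2 difference of 1.34 (adjusted p = 0.00837), and the co-chaperones Dnajb4 and Dnaja1 had 0.83 (adjusted p = 0.0131) and 0.82 (adjusted p = 0.0115) in the same edgeR test. The call of Dnajb4 was lost without ZT22 replicate 2 (adjusted p = 0.0522 in edgeR).

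The mitochondrial chaperones Hspd1 and Hspe1 of the same list did not pass the test, with log2 differences of -0.10 and -0.20. Neither did Hsp90aa1, at 152 and 162 CPM at ZT10, 382 and 418 at ZT14, 213 and 188 at ZT22 and 175 and 89.3 at ZT02: ZT14 was high in both libraries, but ZT10 was below ZT22 (log2 difference 0.62, SE 0.24, adjusted p = 0.16). Of the 13 tested chaperonin and prefoldin genes, which fold actin and tubulin, 0 were called. The heat shock count of 10 was 17 with ZT10 left aside, 1 with ZT14 left aside, 1 with ZT02 left aside and 0 with 2 groups of 4.

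Promoters were searched for the heat shock element, the binding motif of the factor, in the list of its targets and in other tested genes. RefSeq promoters on GRCm38.p6 (250 bases before to 50 after the start) were matched for 10271 tested gene symbols. The motif, read on either strand as the triplets GAA, TTC and GAA (or TTC, GAA and TTC) with any 2 bases between neighbours, occurred in 4 of the 20 matched heat shock factor targets (20%), in 0.574% of all 10271, in 1.47% of the 475 matched genes called higher at dusk and in 0.373% of the 268 called higher at dawn. The 4 were Hsph1, Chordc1, Hspd1 and Hspe1, of which Hsph1 and Chordc1 were called. Their matches are in capitals below, 5′ to 3′ along the gene's strand; those of Chordc1 overlap.
Hsph1 (chr5:149636287-149636308, minus strand): gctgcagaTTCTGGAAAGTTCt
Chordc1 (chr9:18292260-18292289, plus strand): ccgGAACGTTCGGGAAAATTCCTGAAgcag
A match describes letters in the window and shows no binding.

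Ribosome biogenesis genes, which make and process ribosomal RNA in the nucleolus, rose at dusk in 14 of 27 tested cases and fell in none. That was 51.9% called, against 5.91% of all tested genes, and the median log2 difference was 0.44. In 11 of the 27 all 4 dusk libraries were above all 4 dawn libraries, against 6.21% of all tested genes. Nolc1, a nucleolar phosphoprotein, was at 35.7 and 47.2 CPM at ZT10, 51.8 and 52.4 at ZT14, 27.7 and 36.2 at ZT22 and 21.7 and 17.7 at ZT02. ZT10 replicate 1 fell just under ZT22 replicate 2, and the other dusk libraries were above every dawn library (log2 difference 0.89, SE 0.12, adjusted p = 0.00372). Nop56, a core protein of the box C/D particles that methylate ribosomal RNA, was at 26.1 and 39.6 CPM at ZT10, 36.8 and 32.6 at ZT14, 19.2 and 22.5 at ZT22 and 16.5 and 14.8 at ZT02, without overlap (log2 difference 0.90, SE 0.13, adjusted p = 0.00495). Rrs1 (log2 difference 0.88, adjusted p = 0.0104) and the RNA helicase Ddx21 (0.57, adjusted p = 0.0112) were likewise higher in every dusk library in the edgeR fit.

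The proteins of the ribosome itself did not follow at that size: of 77 tested cytosolic ribosomal protein genes 0 were called, 71 had a positive difference, and the median was 0.09. Rpl4 was at 395 and 449.7 CPM at ZT10, 484 and 418 at ZT14, 425 and 437 at ZT22 and 409.7 and 415 at ZT02, and its dusk and dawn libraries overlapped. The gap between the medians of the 2 lists, 0.44 and 0.09, was not tested. The biogenesis count of 14 fell to 9 when ZT02 replicate 1, ZT10 replicate 2 or ZT14 replicate 2 was dropped. Dropping replicate 1 or 2 of ZT22 left 4 or 7, and leaving aside ZT14 or ZT02 as a whole left 5 or 0. With 2 groups of 4 the biogenesis count was 0.

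Several regulators of transcription and translation were among the 15 largest rises at dusk. Jun (ENSMUSG00000052684; GRCm38 chromosome 4, 95049034 to 95052222), a transcription factor of the immediate-early class, was at 21.7 and 18.02 CPM at ZT10, 24.1 and 21.2 at ZT14, 10.002 and 8.60 at ZT22 and 7.79 and 7.23 at ZT02. All 4 dusk libraries were well above all 4 dawn libraries (2.53-fold, log2 difference 1.34, SE 0.13, adjusted p = 0.00254), and the call was kept under all 27 alternatives. The comparison joins 2 contrasts, ZT10 minus ZT22 and ZT14 minus ZT02. Jun was called in both, with log2 differences of 1.09 for ZT10 minus ZT22 (adjusted p = 0.0471) and 1.59 for ZT14 minus ZT02 (adjusted p = 0.00138) in edgeR. The first of these calls was lost without any 1 of the 12 libraries (edgeR adjusted p of Jun 0.0522 to 0.161). Ppp1r10, which targets protein phosphatase 1 to the nucleus, was at 67.02 and 70.4 CPM at ZT10, 52.7 and 49.3 at ZT14, 27.99 and 40.4 at ZT22 and 27.1 and 22.4 at ZT02, and was also called in both contrasts (log2 difference 1.02, SE 0.11, adjusted p = 0.00277 for their mean). The calls of Ppp1r10 were lost in 7 of 12 fits without 1 library for ZT10 minus ZT22 and in 1 for ZT14 minus ZT02 (edgeR adjusted p 0.0504 to 0.164).

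Eif4ebp3, an inhibitor of cap-dependent translation, was at 30.3 and 42.7 CPM at ZT10, 82.1 and 43.9 at ZT14, 26.2 and 17.2 at ZT22 and 12.2 and 18.2 at ZT02, without overlap (log2 difference 1.40, SE 0.23, adjusted p = 0.01). Slc5a3, the sodium-coupled transporter of the osmolyte inositol, was at 27.6 and 27.1 CPM at ZT10, 24.2 and 29.3 at ZT14, 16.3 and 13.95 at ZT22 and 12.95 and 13.2 at ZT02 (log2 difference 0.94, SE 0.11, adjusted p = 0.00277), and its call was kept under all 27 alternatives. It shares exons on the same strand with Mrps6, a mitochondrial ribosomal protein gene, which had nearly the same difference (0.81), so the 2 cannot be told apart. Amd1, which makes the decarboxylated donor for polyamine synthesis, was at 37.99 and 49.8 CPM at ZT10, 55.4 and 53.7 at ZT14, 31.7 and 31.7 at ZT22 and 20.7 and 18.7 at ZT02 (log2 difference 0.97, SE 0.12, adjusted p = 0.00309). Rbm3, a cold-inducible RNA-binding protein, was at 28.5 and 34.9 CPM at ZT10, 31.4 and 31.9 at ZT14, 20.004 and 19.1 at ZT22 and 20.6 and 19.7 at ZT02. Both time points of dusk were above both of dawn by a similar margin (log2 difference 0.68, SE 0.09, adjusted p = 0.00429), and this call also held under all 27 alternatives. Its relative Cirbp had 0.31 for ZT10 minus ZT22 and -1.49 for ZT14 minus ZT02, and did not pass for dusk against dawn (adjusted p = 0.072 in edgeR).

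The other large rises were Dact1 (log2 difference 1.45), a regulator of Wnt signalling, Pprc1 (1.11), a coactivator of mitochondrial genes, the histone variant gene H2afx (1.04), and the transfer RNA methyltransferase subunit Trmt61a (1.03). Further ones were Lyve1 (0.97), Tmcc2 (0.92) and the glycosyltransferases B4galt5 (0.91) and Mgat2 (0.91). Mgat2, which builds complex N-glycans, was at 66.97 and 72.03 CPM at ZT10, 111 and 110.1 at ZT14, 53.1 and 48.8 at ZT22 and 45.5 and 39.9 at ZT02, with ZT14 highest and no overlap (log2 difference 0.91, SE 0.08, adjusted p = 0.00254). Lyve1 is a hyaluronan receptor of sinusoidal and lymphatic endothelium. It was the 1 called of 9 tested endothelial markers (11.1%, against 5.91% of all tested genes). The other 8 lay between -0.22 and 0.05. With ZT02 left aside 9 of the 15 calls were lost and with ZT14 left aside 7, and 2 were kept under all 27 alternatives. Without single libraries the calls of 12 of the 15 genes held; Pprc1 was lost without ZT22 replicate 1 (edgeR adjusted p = 0.0525). Trmt61a and Lyve1 were each lost without ZT02 replicate 2, ZT14 replicate 1, ZT22 replicate 1 or ZT22 replicate 2 (edgeR adjusted p between 0.053 and 0.0834). Trmt61a was lost also without ZT14 replicate 2 (0.0534) and Lyve1 without ZT10 replicate 1 (0.0549).

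**Figure D2:**
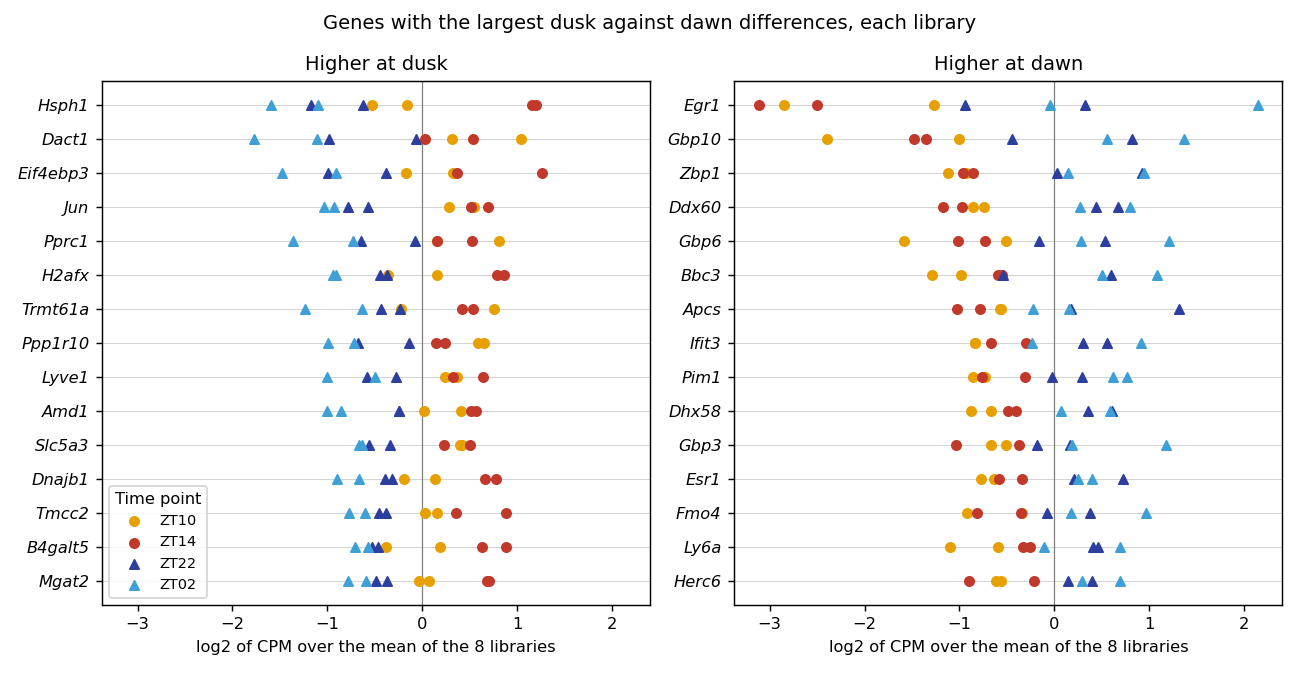
The 15 genes with the largest rise and the 15 with the largest fall at dusk among called genes of at least 5 CPM whose groups did not overlap; the horizontal axis is log2 of CPM over the mean of the 8 libraries, circles are dusk and triangles dawn libraries. The rule set the separation of circles from triangles. ZT14 was the higher dusk time in several of the rises, among them Hsph1, H2afx, Dnajb1, B4galt5, Mgat2, Eif4ebp3 and Amd1.

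The endoplasmic reticulum folds secreted proteins, and the unfolded protein response raises its chaperones and its degradation machinery when the load grows. Of 25 tested genes of that response 4 rose at dusk and 0 fell (16% called, against 5.91% of all tested genes). The median log2 difference was 0.10, with -0.40 for ZT10 minus ZT22 and 0.40 for ZT14 minus ZT02. Syvn1, the ubiquitin ligase of that degradation pathway, was at 38.7 and 29.9 CPM at ZT10, 82.9 and 99.5 at ZT14, 33.7 and 32.5 at ZT22 and 24.002 and 21.04 at ZT02. The ZT14 libraries were high and ZT10 lay near ZT22 (log2 difference 1.03, SE 0.14, adjusted p = 0.00372). Creld2, a small secretory-pathway protein induced by this stress, was at 26.7 and 20.2 CPM at ZT10, 140.2 and 157 at ZT14, 39.7 and 47.7 at ZT22 and 26.6 and 15.1 at ZT02; ZT10 was here below ZT22, and the 2 contrasts differed by 3.73 (adjusted p = 0.0037, edgeR). Dnajb9 and Manf had log2 differences of 0.90 and 0.65 (adjusted p = 0.0225 and 0.0302 in edgeR).

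Hspa5, the main chaperone of this compartment, followed the same order without passing the test, at 749.7 and 556 CPM at ZT10, 1447 and 1989.7 at ZT14, 978 and 763 at ZT22 and 701 and 399.9 at ZT02 (log2 difference 0.61, SE 0.21, adjusted p = 0.112). The count of 4 was 0 with ZT14 left aside, with ZT02 left aside and with 2 groups of 4. It was 2 without either ZT10 library or without ZT22 replicate 1, and 1 without ZT14 replicate 2 or ZT22 replicate 2. In the fits without 1 library Creld2, Dnajb9 or Manf lost their calls (edgeR adjusted p 0.0522 to 0.104), and Syvn1 kept its own, which it lost with ZT14 or ZT02 left aside (0.288 and 0.0876).

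The stress response element, CCAAT and CCACG with any 9 bases between them, was found on either strand in 9 of 21 matched promoters of this list (42.9%) and in 0.185% of all 10271. Of the 4 called members it occurred in Syvn1 and Creld2, shown here upstream of the start with the match in capitals.
Syvn1 (chr19:6046522-6046575, plus strand): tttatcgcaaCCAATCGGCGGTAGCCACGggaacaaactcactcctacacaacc
Creld2 (chr15:88819510-88819645, plus strand): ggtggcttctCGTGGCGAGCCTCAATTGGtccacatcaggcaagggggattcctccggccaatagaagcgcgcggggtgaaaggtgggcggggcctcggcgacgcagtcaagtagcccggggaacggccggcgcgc
The other members of the list with the motif were not called, and a relation of the motif to the ZT14 level was not tested. Both Syvn1 and Creld2 had a high ZT14 level. They differed at ZT10, where Syvn1 had a log2 difference from ZT22 of 0.05 and Creld2 of -0.90.

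Genes induced by interferon were higher at dawn than at dusk. Interferons, the signals of antiviral defence, act through receptors and the transcription factors they activate to raise sensors of viral RNA and effectors. Of 24 tested antiviral genes 13 were higher at dawn and 0 at dusk (54.2% called, against 5.91% of all tested genes). Their median log2 difference was -0.66. The summed antiviral list stood at 539 and 564 CPM at ZT18, within the dawn range of 439 to 614. At dusk it was 343 to 428 CPM, and at ZT06 413 and 397. A high level was thus not confined to the dawn times. In 12 of the 24 all 4 dawn libraries were above all 4 dusk libraries, against 4.35% of all tested genes. Among the sensors, Dhx58 (chromosome 11, 100694884 to 100704271) was at 5.34 and 4.64 CPM at ZT10, 6.44 and 6.07 at ZT14, 10.9 and 12.96 at ZT22 and 12.8 and 8.94 at ZT02. No dusk library reached a dawn library (log2 difference -1.03, SE 0.13, adjusted p = 0.00309), and Dhx58 was called in both contrasts, at -1.26 and -0.80. Without 1 library these were lost for Dhx58 in 6 and 3 of 12 fits (edgeR adjusted p 0.0718 to 0.143). Ifih1, the sensor of long double-stranded RNA, was at 26.3 and 28.5 CPM at ZT10, 30.4 and 36.3 at ZT14, 51.1 and 50.2 at ZT22 and 64.4 and 46.7 at ZT02 (log2 difference -0.81, SE 0.11, adjusted p = 0.00407). Ddx58, the sensor of short ends, was at 20.99 and 20.3 CPM at ZT10, 27.7 and 27.6 at ZT14, 39.5 and 39.1 at ZT22 and 38.2 and 29.1 at ZT02 (log2 difference -0.61, SE 0.09, adjusted p = 0.00704). Both were without overlap.

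Among the effectors, Ddx60 (chromosome 8, 61928087 to 62038244), a helicase of the same pathway outside that list, was at 4.64 and 5.04 CPM at ZT10, 3.73 and 4.28 at ZT14, 11.4 and 13.4 at ZT22 and 14.6 and 10.2 at ZT02. The lowest dawn value, 10.2 CPM, was above the highest dusk value, 5.04 CPM (2.81-fold, log2 difference -1.49, SE 0.18, adjusted p = 0.00308). Xaf1, a promoter of apoptosis, was at 2.33 and 1.96 CPM at ZT10, 2.79 and 2.15 at ZT14, 4.50 and 5.38 at ZT22 and 5.67 and 5.95 at ZT02 (log2 difference -1.22, SE 0.15, adjusted p = 0.00309). Zbp1, a sensor of left-handed nucleic acid, was at 3.11 and 2.73 CPM at ZT10, 3.27 and 3.05 at ZT14, 6.07 and 11.2 at ZT22 and 11.5 and 6.58 at ZT02 (log2 difference -1.54, SE 0.24, adjusted p = 0.00796). Ddx60, Dhx58, Ifih1 and Xaf1 kept their calls under all 27 alternatives, and Zbp1 lost its call with ZT02 left aside. The inhibitor of translation Ifit3 had 5.27 and 5.27 CPM at ZT10, 7.67 and 5.96 at ZT14, 11.6 and 13.9 at ZT22 and 17.8 and 8.03 at ZT02 (log2 difference -1.10, SE 0.21, adjusted p = 0.0173); without ZT14 replicate 2 or ZT22 replicate 2 its adjusted p was 0.0649 or 0.0578 in edgeR. Irf9 (-0.45, adjusted p = 0.0265), a transcription factor of the interferon pathway, was called higher at dawn, and Stat2, another, was not, at 0.05 (adjusted p = 0.847, edgeR). The call of Irf9 was lost without replicate 1 of ZT02 or replicate 2 of ZT10, ZT14 or ZT22 (edgeR adjusted p 0.0662 to 0.0937).

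Guanylate-binding proteins are interferon-induced enzymes that attack vacuoles of intracellular microbes, and together with antigen presentation they formed a list of 25 tested genes. Of these 4 were higher at dawn and 0 at dusk (16% called, against 5.91% of all tested genes), with a median of -0.36. Gbp10 was at 5.54 and 2.10 CPM at ZT10, 4.35 and 3.96 at ZT14, 8.17 and 19.6 at ZT22 and 28.7 and 16.3 at ZT02, without overlap (log2 difference -2.15, SE 0.33, adjusted p = 0.00705). Gbp6 (-1.43), Gbp3 (-1.01) and Gbp7 (-0.64) were also called. The count of 4 was 1 without ZT02 replicate 1, ZT14 replicate 1 or ZT22 replicate 2, and 2 without either ZT10 library or ZT22 replicate 1. It was 0 with ZT02 left aside or with 2 groups of 4. Gbp6 and Gbp10 are close copies whose reads may be split between them. The presenting molecules H2-K1, H2-D1 and B2m did not pass the test, at -0.04, -0.07 and -0.08.

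The antiviral count of 13 was 20 with DESeq2. It fell to 6, 5 or 4 when ZT02 replicate 1, ZT10 replicate 2 or ZT14 replicate 2 was dropped. Dropping replicate 1 or 2 of ZT22 left 8 or 4. It was 4 with ZT02 left aside and 3 with 2 groups of 4. Immune cell markers had differences of the same sign. All 12 tested lymphocyte markers had a negative difference, 3 of them called (25%, against 2.26% of all tested genes), with Cd3e and Cd8a among these. The 12 markers summed to 4.96 to 16.3 CPM at dusk and 15.5 to 19.1 at dawn, lowest in the 2 ZT14 libraries. These counts are low, and each call was lost without ZT10 replicate 1 or either ZT22 library among others (edgeR adjusted p up to 0.145), so the count of 3 fell to 0 or 1 without ZT10 replicate 1 or any 1 library of ZT02, ZT14 or ZT22; Cd3e moved to -3.84 without ZT14 replicate 2. Cd3e, which defines T cells, had 0 counts in ZT14 replicate 1 and 1 in ZT14 replicate 2. All 10 tested Kupffer cell and macrophage markers had a negative difference, with 0 called, and summed to 304 to 434 CPM at dusk and 405 to 558 at dawn. Fewer cells of a type and less RNA per cell cannot be told apart in bulk liver, and the part of these cells in the interferon result was not tested.

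The interferon response element, GAAA and GAAA with any 2 bases between them, occurred on either strand in 9 of 16 matched promoters of the antiviral list (56.2%), in 10 of 17 of the second interferon list (58.8%) and in 3.9% of all 10271. It was in 9.33% of the 268 matched genes called higher at dawn and in 2.11% of the 475 called higher at dusk. For 6 called genes with matches, the stretch that holds them is shown with the matches in capitals; overlapping matches run together in Isg15 and Gbp3. A capital run that starts with TTTC is the motif read on the other strand.
Ifit3 (chr19:34583363-34583528, plus strand): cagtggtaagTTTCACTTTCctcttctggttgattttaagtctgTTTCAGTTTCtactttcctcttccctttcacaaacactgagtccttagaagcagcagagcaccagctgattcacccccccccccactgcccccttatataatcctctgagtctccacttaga
Ifit1 (chr19:34640775-34640888, plus strand): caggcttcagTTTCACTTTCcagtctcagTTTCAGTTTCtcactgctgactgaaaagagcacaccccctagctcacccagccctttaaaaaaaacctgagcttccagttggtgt
Isg15 (chr4:156200819-156200908, minus strand): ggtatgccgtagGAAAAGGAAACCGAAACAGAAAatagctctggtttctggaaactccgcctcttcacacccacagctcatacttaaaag
Gbp3 (chr3:142559989-142560043, plus strand): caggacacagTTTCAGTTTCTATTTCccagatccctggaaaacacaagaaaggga
Ifih1 (chr2:62646206-62646233, minus strand): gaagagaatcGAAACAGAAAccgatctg
Ddx58 (chr4:40239804-40239833, minus strand): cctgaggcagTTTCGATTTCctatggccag
Ifit3 and Ifit1 each carry 2 separate matches upstream of the start, and those of Ifih1 and Ddx58 lie just after it. Isg15 was lost without ZT10 replicate 2, either ZT14 library or ZT22 replicate 2, and Ifit1 without ZT02 replicate 1, either ZT10 library, ZT14 replicate 2 or ZT22 replicate 2 (edgeR adjusted p 0.0546 to 0.086).

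Acute-phase proteins are secreted by hepatocytes during inflammation, driven by interleukin 6 and STAT3. Genes of that signalling were split: of 13 tested, 1 rose at dusk (Bcl3) and 2 fell, with a median log2 difference of -0.0089. The share called among them was 23.1%, against 5.91% of all tested genes. Of 21 tested acute-phase genes, 7 were higher at dawn and 0 at dusk (33.3% called, against 5.91% of all tested genes). The median was -0.48, and the excess was at ZT22. Saa1 (chromosome 7, 46740497 to 46742980), a serum amyloid, was at 19.3 and 5.76 CPM at ZT10, 10.4 and 7.93 at ZT14, 155 and 316 at ZT22 and 15.6 and 6.69 at ZT02. Both ZT22 libraries were far above the rest, while ZT02 lay within the dusk range (log2 difference -2.26, SE 0.38, adjusted p = 0.0107). For Saa1 the difference was -4.23 for ZT10 minus ZT22 (adjusted p = 0.0345) and -0.29 for ZT14 minus ZT02 (adjusted p = 0.806), and these contrasts differed by 3.94 (adjusted p = 0.0287, edgeR). That difference lost its call for Saa1 without ZT02 replicate 2, ZT14 replicate 1 or any 1 library of ZT18 or ZT22 (edgeR adjusted p 0.0586 to 0.122), and the ZT10 minus ZT22 call was lost without ZT10 replicate 2 or either ZT18 library (0.0533 to 0.0775). For Saa1 the ZT10 minus ZT22 value ran from -3.61 without ZT10 replicate 2 to -5.35 without ZT10 replicate 1, and the difference between contrasts from 3.31 to 5.06 in the same fits. Saa2, a close copy that may share reads, was at 9.68 and 3.43 CPM at ZT10, 6.04 and 3.41 at ZT14, 95.8 and 185 at ZT22 and 11.1 and 2.53 at ZT02 (log2 difference -2.49, SE 0.46, adjusted p = 0.0151; -1.78 and not called without ZT02 replicate 1, adjusted p = 0.0635, edgeR).

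Lrg1, a secreted glycoprotein of the same response outside that list, was at 84.3 and 93.3 CPM at ZT10, 165 and 126 at ZT14, 284 and 401 at ZT22 and 121 and 165 at ZT02; ZT22 was high and the other libraries ran from 84.3 to 165 CPM (log2 difference -0.96, SE 0.14, adjusted p = 0.00535). Apcs, the serum amyloid P component, was at 29.8 and 29.98 CPM at ZT10, 25.8 and 21.7 at ZT14, 49.98 and 110.2 at ZT22 and 49.5 and 37.9 at ZT02, without overlap (log2 difference -1.15, SE 0.21, adjusted p = 0.0139). Orm1 (-0.84), Orm2 (-1.46), Lcn2 (-2.32) and Itih4 (-0.48) were the other called members of the list, which with Saa1, Saa2 and Apcs make 7. None of these 4 kept its call when replicate 1 of ZT02, replicate 2 of ZT10 or either ZT14 library was dropped. Lcn2 moved to -1.71 without ZT22 replicate 2 (edgeR adjusted p = 0.0946). Stat3 itself was at 143 and 90.4 CPM at ZT10, 82.7 and 82.7 at ZT14, 134 and 162 at ZT22 and 123 and 139 at ZT02, with ZT10 replicate 1 among the dawn libraries (log2 difference -0.50, SE 0.13, adjusted p = 0.0477; lost without any 1 library but ZT10 replicate 1, edgeR adjusted p 0.0596 to 0.15).

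The acute-phase count of 7 was 13 with DESeq2. It fell to 2 when ZT02 replicate 1 was dropped and to 0 when ZT14 replicate 2 was. It was 3 after dropping ZT10 replicate 2, ZT14 replicate 1 or ZT22 replicate 2, and 4 after either ZT18 library. With ZT22 left aside or with 2 groups of 4 it was 0. Without ZT14 replicate 2 the adjusted p of Saa1 was 0.0511 and that of Apcs 0.058 in edgeR. ZT22 replicate 2 had the highest Saa1, Lrg1 and Apcs of the 8 libraries, and summed acute-phase levels were 27236 and 34873 CPM at ZT22 against 18847 to 24212 in the other 6. The neutrophil marker sum was 12.8 CPM in ZT22 replicate 1 and 3.14 in ZT22 replicate 2, and 1.38 to 1.77 in those 6; 2 of its 9 markers were abundant enough to test, and neither was called. The part of neutrophils in the acute-phase result was not tested.

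Several further genes were higher at dawn in all 4 libraries. Esr1 (ENSMUSG00000019768; GRCm38 chromosome 10, 4611593 to 5005614), the estrogen receptor of hepatocytes, was at 33.8 and 30.9 CPM at ZT10, 41.7 and 35.1 at ZT14, 60.7 and 86.9 at ZT22 and 69.2 and 62.8 at ZT02. The lowest dawn library stood at 60.7 CPM and the highest dusk library at 41.7 CPM (log2 difference -0.99, SE 0.12, adjusted p = 0.00308), the call was kept under all 27 alternatives, and both contrasts were called (-1.19 and -0.78). Pim1, a survival kinase, was at 8.78 and 9.57 CPM at ZT10, 9.39 and 12.8 at ZT14, 19.4 and 15.6 at ZT22 and 27.03 and 24.4 at ZT02, again called in both contrasts (log2 difference -1.07, SE 0.11, adjusted p = 0.00254). Without 1 library the ZT10 minus ZT22 call was lost in 5 of 12 fits for Esr1 (edgeR adjusted p 0.0503 to 0.0839) and in 8 for Pim1 (0.0523 to 0.249), and the ZT14 minus ZT02 call in 4 for Esr1 (0.0657 to 0.111) and 0 for Pim1. Egr1, an immediate-early transcription factor, showed the largest fall among called genes of at least 5 CPM without overlap, at 2.71 and 0.910 CPM at ZT10, 1.15 and 0.756 at ZT14, 3.40 and 8.18 at ZT22 and 28.9 and 6.32 at ZT02. ZT02 replicate 1 was far above the other dawn libraries (log2 difference -2.95, SE 0.51, adjusted p = 0.0116; -2.22 without that library), and the call was lost without ZT14 replicate 2 (adjusted p = 0.0549, edgeR).

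Bbc3, a trigger of apoptosis, was at 2.71 and 2.19 CPM at ZT10, 3.65 and 3.55 at ZT14, 3.69 and 8.10 at ZT22 and 11.4 and 7.60 at ZT02, the lowest dawn value just above the highest of dusk (log2 difference -1.33, SE 0.23, adjusted p = 0.0123). Steap3, a reductase of iron uptake, and Hsd3b3, a steroid dehydrogenase, were chosen after their values were seen, as genes called in both contrasts. Steap3 was at 10.8 and 10.5 CPM at ZT10, 13.1 and 12.4 at ZT14, 18.04 and 17.9 at ZT22 and 18.7 and 21.1 at ZT02 (log2 difference -0.70, SE 0.08, adjusted p = 0.00277). Hsd3b3 was at 97.96 and 108 CPM at ZT10, 117 and 131 at ZT14, 179 and 157 at ZT22 and 199 and 185 at ZT02 (log2 difference -0.67, SE 0.08, adjusted p = 0.00309). The chemokine Ccl9 (log2 difference -0.88) and the apolipoprotein gene Apol9a (-0.82), noted the same way, were among the 13 dawn genes that 2 groups of 4 still called. Of the 15 largest falls, those not yet described were Fmo4 (-0.98), a monooxygenase, the surface protein Ly6a (-0.95), and Herc6 (-0.94), a ligase of an interferon-induced modifier. With ZT02 left aside 10 of the 15 calls were lost and with ZT14 left aside 6, and 3 were kept under all 27 alternatives. Without single libraries 8 of the 15 kept their calls. Gbp6 and Fmo4 were lost without ZT02 replicate 1, ZT14 replicate 1 or ZT22 replicate 2 (edgeR adjusted p between 0.0609 and 0.0798), Gbp6 also without ZT14 replicate 2 (0.0568) and Fmo4 without ZT10 replicate 1 (0.067). Ly6a was lost without 8 libraries (ZT02 replicate 1, ZT10 replicate 2 and both of ZT14, ZT18 and ZT22; 0.0587 to 0.113 in edgeR), and Gbp3 without 9 (every library but ZT02 replicate 2 and the 2 of ZT18; 0.0511 to 0.141).

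Of 20 tested clock and clock-output genes 1 rose at dusk and 2 fell (15%, against 5.91% of all tested genes), and the median was 0.04. Per3, a period protein, was at 44.8 and 46.4 CPM at ZT10, 41.6 and 35.6 at ZT14, 54.7 and 55.7 at ZT22 and 75.5 and 69.2 at ZT02, without overlap (log2 difference -0.59, SE 0.08, adjusted p = 0.00372). Dbp, an output transcription factor that binds D-boxes, was at 87.8 and 98.6 CPM at ZT10, 57.5 and 67.9 at ZT14, 92.5 and 104 at ZT22 and 108 and 133 at ZT02. The groups overlapped, and its call (log2 difference -0.51, SE 0.10, adjusted p = 0.0164) was lost without ZT14 replicate 1 or ZT22 replicate 2 (edgeR adjusted p = 0.0513 and 0.0644). Per2, which heat shock factor can induce, was at 54.99 and 66.4 CPM at ZT10, 119.7 and 91.6 at ZT14, 66.4 and 67.8 at ZT22 and 55.03 and 56.2 at ZT02. The ZT14 libraries were high and ZT10 was no higher than ZT22 (log2 difference 0.39, SE 0.10, adjusted p = 0.0493). It was lost without 10 of the 12 libraries in turn, ZT06 replicate 1 and ZT14 replicate 2 excepted (edgeR adjusted p 0.0507 to 0.149), and the 2 contrasts differed by 1.07 (adjusted p = 0.0281).

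Arntl, which encodes BMAL1, was at 12.6 and 6.72 CPM at ZT10, 7.57 and 7.91 at ZT14, 10.3 and 11.7 at ZT22 and 12.3 and 7.52 at ZT02. Nr1d1, which encodes the repressor REV-ERB alpha, was at 19.1 and 13.6 CPM at ZT10, 16.9 and 16.3 at ZT14, 10.8 and 18.7 at ZT22 and 23.9 and 19.7 at ZT02. Their dusk and dawn libraries overlapped (-0.27, adjusted p = 0.437, and -0.12, adjusted p = 0.714, in edgeR). The E-box CACGTG, read by CLOCK and BMAL1, was in 15.8% of matched promoters of genes called higher at dusk, in 8.21% of those called higher at dawn and in 11.4% of all 10271. The D-box, TTATGNAA or TTACGTAA on either strand, was in 2.95%, 6.34% and 3.08%. Per3 carries 2 D-boxes, in capitals.
Per3 (chr4:151044666-151044880, minus strand): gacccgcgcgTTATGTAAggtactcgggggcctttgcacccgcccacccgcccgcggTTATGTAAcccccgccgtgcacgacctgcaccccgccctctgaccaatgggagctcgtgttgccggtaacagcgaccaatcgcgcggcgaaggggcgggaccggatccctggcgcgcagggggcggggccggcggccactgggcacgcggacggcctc

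Immediate-early genes, which respond to signals within minutes, were split: of 16 tested, 3 rose at dusk (Jun, Jund and Dusp1) and Egr1 fell. The share called was 25%, against 5.91% of all tested genes. Jund was at 69.8 and 71.3 CPM at ZT10, 67.1 and 64.6 at ZT14, 47.5 and 48.2 at ZT22 and 44.4 and 54.1 at ZT02, without overlap (log2 difference 0.49, SE 0.09, adjusted p = 0.0148). Dusp1, a phosphatase that glucocorticoids induce, was at 47.7 and 12.5 CPM at ZT10, 25.2 and 21.3 at ZT14, 9.19 and 8.47 at ZT22 and 11.05 and 13.2 at ZT02, with 1 library at ZT10 far above the other dusk libraries (log2 difference 1.36, SE 0.32, adjusted p = 0.0368; 0.73 without ZT10 replicate 1). The count of 3 was 1 without ZT02 replicate 1, ZT22 replicate 1 or ZT22 replicate 2. Jund was lost in these fits (edgeR adjusted p = 0.0616, 0.0578 and 0.0527), and Dusp1 was lost without any 1 of ZT02, ZT14, ZT18 or ZT22 (0.0538 to 0.127).

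Of 24 tested cholesterol synthesis genes 3 were higher at dawn (Fdft1, Mvk and Dhcr7; 12.5%, against 2.26% of all tested genes) and 0 at dusk; 23 had a negative difference and the median was -0.81. Hmgcs1, an early enzyme of that pathway, averaged 89.1 CPM at dusk and 212 at dawn, and did not pass (adjusted p = 0.103, edgeR). The summed list was 4996 CPM in ZT02 replicate 1 and 2163 in ZT02 replicate 2, so the 2 libraries of that time lay at opposite ends of the dawn range. Without ZT02 replicate 2 and ZT06 replicate 1 the count was 16, and without ZT02 replicate 1 it was 0. The count of 3 was also 0 without either ZT14 library, either ZT22 library or ZT10 replicate 1, and 1 without either ZT18 library; the highest of the single-library fits gave 11.

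Of 16 fatty acid synthesis genes 0 were called, and Fasn, the synthase itself, was at 180.5 and 396 CPM at ZT10, 3923 and 1369 at ZT14, 1418 and 1063 at ZT22 and 1524 and 268 at ZT02. Its libraries overlapped widely and differed within each side (log2 difference -0.27, SE 0.62, adjusted p = 0.841). Alas1, the first enzyme of heme synthesis, was at 503 and 1356 CPM at ZT10, 958 and 1712 at ZT14, 443 and 547 at ZT22 and 358 and 462 at ZT02 (log2 difference 1.31, SE 0.30, adjusted p = 0.0317); it was lost without either library of ZT02, ZT18 or ZT22, without ZT10 replicate 2 or without ZT14 replicate 2 (0.0539 to 0.113, edgeR). None of the 26 fatty acid oxidation, 15 gluconeogenesis, 33 proteasome, 22 respiratory chain and 20 antioxidant genes tested (the NRF2 list) passed the test of dusk against dawn. Fatty acid oxidation had medians of 0.44 for ZT10 minus ZT22 and -0.42 for ZT14 minus ZT02. Those of gluconeogenesis were 0.25 and -0.34. The difference between these contrasts was called in 5 of the 26 and 4 of the 15, against 2.38% of all tested genes. It was called in 0 proteasome or respiratory chain genes and 1 antioxidant gene.

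Lists with calls in both directions were small. Calls made up 23.5% of lipid droplet genes and 21.1% of ATF4 amino acid response genes, against 5.91% of all tested genes. Among 17 tested lipid droplet genes, Plin4 (1.43) and Plin5 (0.57), coat proteins of the droplet, rose at dusk, and Cideb (-0.31) and Lpin3 (-0.58) fell. Plin4 was at 7.95 and 18.6 CPM at ZT10, 12.8 and 12.8 at ZT14, 4.42 and 4.57 at ZT22 and 2.48 and 8.03 at ZT02, with spread within each side, and was lost without ZT02 replicate 1, ZT10 replicate 2 or any 1 library of ZT14, ZT18 or ZT22 (edgeR adjusted p 0.0597 to 0.116). Of 19 genes of the ATF4 amino acid response, Ddit3 (0.73) and the transporter subunit Slc3a2 (0.31) rose and Chac1 (-1.90) and Trib3 (-0.60) fell. Chac1, which degrades glutathione, was at 1.13 and 1.75 CPM at ZT10, 0.188 and 0.802 at ZT14, 2.59 and 1.84 at ZT22 and 1.98 and 7.37 at ZT02; it moved to -1.29 without ZT02 replicate 2 and to -2.61 without ZT14 replicate 2.

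Of 22 cell cycle genes, Mcm3 (-0.58) and Mcm5 (-1.40), parts of the replicative helicase, fell at dusk, and Cdkn1a (1.02), an inhibitor of cyclin-dependent kinases, rose. The share called was 13.6%, against 5.91% of all tested genes. Mcm5 was at 1.28 and 1.66 CPM at ZT10, 2.12 and 1.49 at ZT14, 3.61 and 6.36 at ZT22 and 5.01 and 2.36 at ZT02. Cdkn1a was at 0.476 and 0.630 CPM at ZT10, 0.966 and 0.779 at ZT14, 0.209 and 0.286 at ZT22 and 0.482 and 0.455 at ZT02. Cdkn1a lost its call without any 1 of the 12 libraries (edgeR adjusted p 0.0544 to 0.136). Mcm5 lost it without ZT02 replicate 1 or any 1 library of ZT10, ZT14, ZT18 or ZT22, and Mcm3 without the same ones except ZT10 replicate 2 (0.0537 to 0.147, edgeR). Of 20 complement and coagulation genes 3 fell (15%, against 2.26% of all tested genes), namely F11, C4b and F7 at -0.57, -0.39 and -0.26. Plin5, Cideb, Lpin3, Ddit3, Slc3a2, Trib3, Chac1, F11, C4b and F7 each lost their call without ZT22 replicate 1 (edgeR adjusted p 0.0722 to 0.163) or ZT22 replicate 2 (0.0542 to 0.147), among other libraries.

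The 2 contrasts that make up the comparison share no library. ZT10 minus ZT22 called 40 genes (0.233%), 16 of them higher at ZT10 (0.0933%) and 24 lower (0.14%). ZT14 minus ZT02 called 1128 (6.58%), 694 of them higher at ZT14 (4.05%) and 434 lower (2.53%). Of the 16 higher genes of the first contrast 4 were also called higher in the second (25% of the first list and 0.576% of the second), and of the 24 lower genes 5 (20.8% and 1.15%). The shared genes were Jun, Ppp1r10, Rnf145 and the gene model Gm16309 on the dusk side, and Dhx58, Esr1, Pim1, Steap3 and Hsd3b3 on the dawn side. All 9 lost their ZT10 minus ZT22 call without either ZT18 library or ZT10 replicate 2, and each did so in 5 to 12 of the 12 fits without 1 library (edgeR adjusted p 0.0503 to 0.249). The ZT14 minus ZT02 calls of Jun, Pim1 and Gm16309 were kept in all 12, and those of the other 6 were lost in 1 to 4 (edgeR adjusted p 0.0504 to 0.147). Dropping replicate 1 or 2 changed the count of 40 to 8 or 25 for ZT10 and to 3 or 2 for ZT18. It became 5 when ZT22 replicate 1 was dropped and 72 when ZT02 replicate 1 was. The count of 1128 changed in the same way to 641 or 363 for ZT02 and to 279 or 724 for ZT14.

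In 408 genes (2.38%) the contrasts themselves differed. The larger value was that of ZT14 minus ZT02 in 190 (1.11%) and that of ZT10 minus ZT22 in 218 (1.27%). Dropping replicate 1 of ZT10 or ZT14 changed that count to 143 or 54, and dropping ZT02 replicate 2 to 66. Dropping replicate 1 or 2 gave 124 or 117 for ZT18 and 40 or 142 for ZT22. Igfbp1, a secreted binder of insulin-like growth factors that fasting induces, was at 71.8 and 7.82 CPM at ZT10, 4.78 and 1.49 at ZT14, 11.96 and 21.2 at ZT22 and 138 and 54.3 at ZT02. ZT02 and 1 ZT10 library were high, and the contrasts were 1.26 and -4.96 (their difference -6.22, adjusted p = 0.0436, edgeR). Pck1, the gluconeogenic enzyme, was at 5052 and 1845 CPM at ZT10, 428 and 943 at ZT14, 1066 and 1591 at ZT22 and 2108 and 2797 at ZT02 (difference between contrasts -3.22, adjusted p = 0.0371, edgeR). The difference between contrasts lost its call for Igfbp1 without any 1 library but ZT10 replicate 2 (edgeR adjusted p 0.05 to 0.158), and its value ran from -3.88 without ZT10 replicate 1 to -7.28 without ZT14 replicate 1. For Pck1 it was lost without ZT02 replicate 2, ZT10 replicate 1, ZT14 replicate 1 or any 1 library of ZT18 or ZT22 (edgeR adjusted p 0.0645 to 0.154), and ran from -2.31 without ZT10 replicate 1 to -3.90 without ZT14 replicate 2. Cyp4a14, a fatty acid hydroxylase regulated by PPAR alpha, was at 1015 and 1759 CPM at ZT10, 606 and 334 at ZT14, 266 and 169 at ZT22 and 1038 and 1099 at ZT02; ZT02 and ZT10 were high and ZT22 low (-3.86, adjusted p = 0.0142, edgeR; for Cyp4a14 0.0514 without ZT22 replicate 1).

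Acot3 (-3.98), a thioesterase of peroxisomes, and Tcp11l2 (-3.43) shared that order of contrasts; Acot3 moved to -4.63 and -2.73 without ZT10 replicate 1 and 2 and lost its call without ZT02 replicate 2 or any 1 library of ZT14, ZT18 or ZT22 (edgeR adjusted p 0.0579 to 0.138). Tcp11l2 was also called for dusk against dawn, at 23.04 and 18.2 CPM at ZT10, 2.68 and 5.02 at ZT14, 13.5 and 13.8 at ZT22 and 24.4 and 30.9 at ZT02, where ZT14 was low (log2 difference -1.12, SE 0.16, adjusted p = 0.00563). Bmf, a trigger of apoptosis, was at 11.6 and 7.86 CPM at ZT10, 3.49 and 3.05 at ZT14, 9.87 and 13.6 at ZT22 and 21.5 and 29.7 at ZT02, lowest at ZT14 and highest at ZT02 (log2 difference -1.62, SE 0.16, adjusted p = 0.00254). In the other direction, Serpina12, a secreted serpin, and Hapln4 had differences between contrasts of 2.80 and 2.62, and dusk minus dawn differences of -0.03 and -0.04. The difference between contrasts lost its call for Hapln4 without ZT14 replicate 1 (adjusted p = 0.0598, edgeR). Ppp1r3g, a glycogen-targeting phosphatase subunit singled out after its values were seen, was at 1.88 and 5.44 CPM at ZT10, 0.402 and 0.412 at ZT14, 0.105 and 0.338 at ZT22 and 2.92 and 4.81 at ZT02. It was called in both contrasts in opposite directions, at 4.03 (adjusted p = 0.0345) and -3.23 (adjusted p = 0.00854) in edgeR, so ZT10 and ZT02 were high and ZT14 and ZT22 low. Without 1 library these calls of Ppp1r3g were lost in 6 and 3 of 12 fits (edgeR adjusted p 0.0503 to 0.181).

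**Figure D3:**
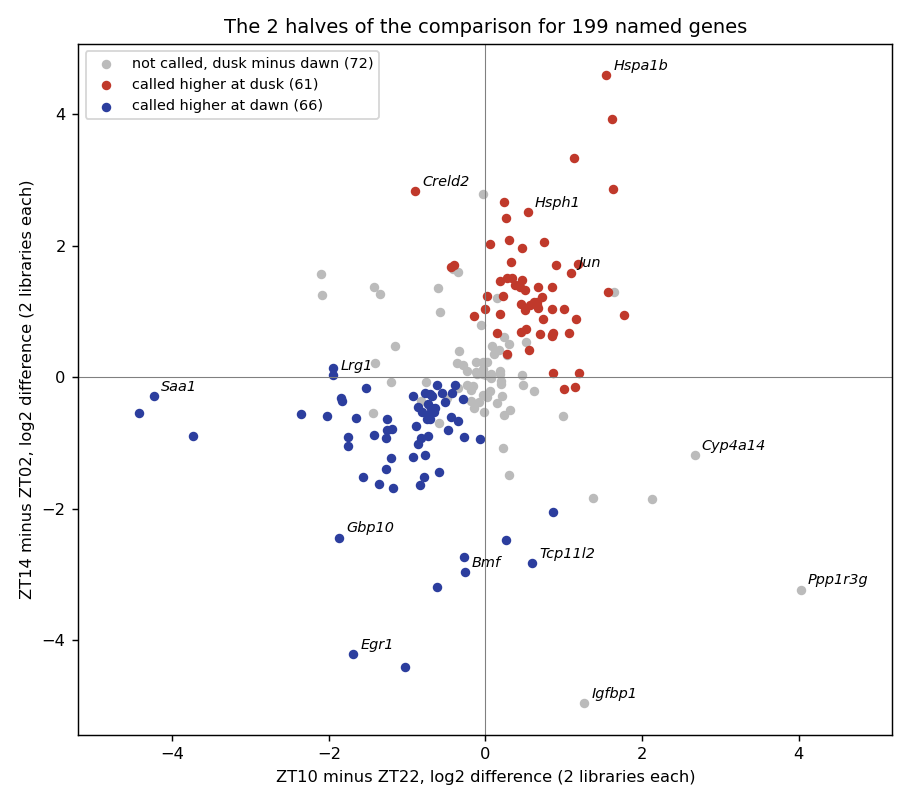
Log2 difference of ZT10 minus ZT22 (horizontal axis) and ZT14 minus ZT02 (vertical axis) for the 199 genes that the naming rule took up or that were singled out afterwards; colour gives the call of the joint comparison, 61 higher at dusk, 66 higher at dawn and 72 not called. Igfbp1, Cyp4a14 and Ppp1r3g lie below and right of the origin, where the contrasts oppose each other.

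The time of the highest mean was counted for the called genes, with ZT06 and ZT18 included. Of the 626 genes called higher at dusk, 411 had their highest time mean at ZT14, 204 at ZT10, 9 at ZT18 and 2 at ZT06. Of the 387 called higher at dawn, 192 were highest at ZT02, 99 at ZT22, 50 at ZT06 and 44 at ZT18, and 1 each at ZT10 and ZT14. Calling genes by their dusk and dawn means favours peaks on the called side, so these counts are not separate evidence of peak time. Over all 17142 tested genes the highest mean was at ZT02 in 2548, ZT06 in 2642 and ZT10 in 3569. It was at ZT14 in 3182, ZT18 in 3156 and ZT22 in 2045. ZT18 exceeded ZT06 in 69.6% of the dusk genes, in 38.8% of the dawn genes and in 49.98% of all tested genes. ZT06 and ZT18 took no part in the contrast, only in its spread. The ZT06 libraries nevertheless correlated at 0.48 and 0.49 with the ZT02 libraries of the same replicate number. These shares are therefore not separate evidence either.

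**Figure D4:**
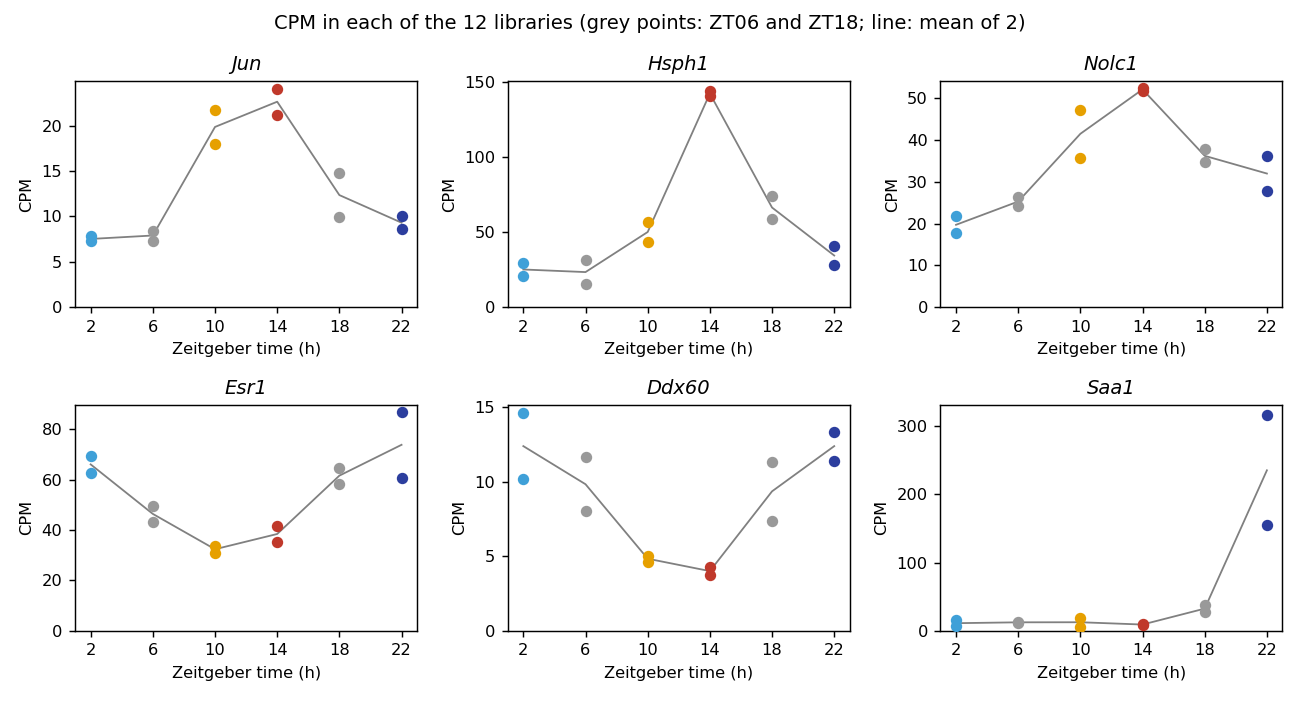
CPM of Jun, Hsph1, Nolc1, Esr1, Ddx60 and Saa1 (vertical axes from 0) against zeitgeber time in hours; points are the 12 libraries, coloured for the 4 times compared and grey for ZT06 and ZT18, and the line joins means of 2. Jun was high at both dusk times, Hsph1 was highest at ZT14, Esr1 and Ddx60 were lowest at ZT10 and ZT14, and Saa1 was high at ZT22.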

How the data were processed

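RNA of 12 liver libraries was sequenced after ribosomal RNA depletion, per the labels' protocols. The deposited table holds the authors' raw exon counts of 22618 genes. The submitters' processing notes list STAR 2.4.0i and mm10, while the tool and strand setting for counting and the annotation are not given in the sources used here.

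Counts were scaled with TMM, filtered with filterByExpr (minimum count 10, minimum total 15) and fitted with edgeR 4.0.16 (quasi-likelihood, R 4.3.3) as 6 time groups, leaving 6 residual degrees of freedom. The ZT10 and ZT14 means were set against the ZT22 and ZT02 means, and adjusted p-values (Benjamini-Hochberg) cover all 17142 tested genes. Totals of 35662865 to 46074052 counts in the 8 libraries limit precision to counting error plus 2 libraries per time. limma 3.58.1 (voom) and DESeq2 1.42.0 were alternatives. The scripts were tested on simulated data. Positions and promoters come from GENCODE and RefSeq on GRCm38.

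The rule named the 15 largest differences in each direction (called, at least 5 CPM, no overlap), the 5 largest in each direction for ZT10 minus ZT22, ZT14 minus ZT02 and their difference, up to 4 called members per list with the smallest adjusted p (2 abundant members for a list with no call), and the clock genes. The comparison, lists and rule were chosen with earlier results of these data known. Replicate numbers did not pair the libraries across the series: 5 of 15 pairs of time points correlated above 0.1, the highest being ZT02 with ZT06 at 0.50. Other settings are described in the closing section. Some genes that the rule takes up are not reported here.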

Additional observations from a re-analysis of the deposited data

Results flagged for a closer look

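In 7 of 206 groups of 4 checked (3.4%), for 103 genes, 1 library stood apart from its 3 companions by Dixon's test, and chance alone flags about 1 in 20. Among the dawn libraries, ZT22 replicate 2 was high for Apcs (110.2 CPM, the next at 49.98), ZT02 replicate 1 for Gbp7 (46.4, next 29.2), and ZT02 replicate 2 for Chac1 (7.37, next 2.59) and Tef (259.6, next 223). ZT02 replicate 2 was low for Ddx58 (29.1 CPM, next 38.2). Among the dusk libraries, ZT10 replicate 1 was high for Stat3 (143 CPM, next 90.4) and Per1 (53.5, next 26.1).

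The 2 contrasts, ZT14 minus ZT02 and ZT10 minus ZT22, differed in 408 genes by the edgeR test of the difference itself, and 9 of those with the largest difference in either direction are given here, the first contrast exceeding the second by 3.94 for Saa1, 3.73 for Creld2, 2.80 for Serpina12 and 2.62 for Hapln4 on the log2 scale. In the other direction the difference was -6.22 for Igfbp1, -3.98 for Acot3, -3.86 for Cyp4a14, -3.43 for Tcp11l2 and -3.22 for Pck1.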

How the results depend on the processing

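The count of 1013 called genes stayed within 1.5 times under RLE factors (987), no filter on low counts (816), a minimum count of 50 (1122), DESeq2 (1453), limma-voom (1003), total counts (1277) and with ZT10 or ZT22 left aside (941 and 865); leaving time points aside was chosen after seeing the data. With the replicate block it was 894. Replicate numbers did not pair the libraries across all time points (correlations between -0.22 and 0.50, the highest for ZT02 with ZT06). The block therefore tests no pairing of animals.

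With ZT02 replicate 1 and ZT06 replicate 2 left aside it was 398 (261 higher at dusk, 137 at dawn), with the 8 libraries as 4 groups 480 (270 and 210), as 2 groups 29 (16 and 13), without ZT14 389 (222 and 167) and without ZT02 66 (27 and 39). Total counts gave 941 higher at dusk, and DESeq2 661 higher at dawn. Without single libraries the ranges were 281 to 1006 in all, 167 to 608 at dusk and 108 to 422 at dawn, and genes without overlap went from 1809 to 2133 to 3023, fewer libraries overlapping less often by construction.

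ZT10 minus ZT22, 40 genes, gave 76 with a minimum count of 50, 717 with DESeq2, 215 and 216 with either pair of ZT02 and ZT06 libraries aside (replicates 1 and 2, or 2 and 1), 1 with 4 groups, and 2 to 72 without single libraries. ZT14 minus ZT02, 1128 genes, gave 704 and 449 with those pairs aside, 703 with 4 groups and 279 to 1161 without single libraries. The difference between these contrasts, 408 genes, gave 910 with DESeq2, 677 and 81 with the pairs aside, 87 with 4 groups and 40 to 563 without single libraries. The cause of these shifts was not tested.

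Of 157 called gene values, 27 kept their call under every one of the 27 settings and 60 without any 1 library. Direction reversed for 6 of them: with ZT14 left aside Creld2 (-0.37), Tcp11l2 (0.086), Per2 (-0.010), Manf (-0.0043) and Actg1 (-0.23), and with ZT02 aside Trib3 (0.40). Of 72 values not called, 2 became called with the opposite sign, Hapln4 with ZT10 aside (0.91) and Ppp1r3g with ZT22 aside (-1.65), and 47 changed sign under some setting without a call; with a time point left aside 1 side is a single time point. With 2 libraries per time, differences near the spread of a pair were not detectable.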
